A study of Mus musculus with 64 samples.

Results

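Dcx, Sox11, Sox4, Dlx1, Dlx2, Dlx5, Tubb3, Cd24a, Igfbpl1 and Sp9 are genes of neuroblasts and migrating young neurons, and they were followed here in preparations of mouse microglia. The 10 genes are rows of a count table of 49671 genes. They were taken from general knowledge of immature neurons after Dcx had been seen to be lower in cortical libraries labelled day than in those labelled night. The genes were thus chosen by the day-night difference of Dcx in frontal cortex, and the cortical day-night values are given below as a description with no test. Averaged over the phases, Dlx1 and Sp9 had lower levels in hippocampal than in cortical preparations. Dcx was lower there as well, but only as a description, since its cortical values chose the genes. Also as a description, 9 of the 10 genes had their highest median level in cortical night libraries. Sox4 followed neither pattern. The region values of Dcx within each phase are a description too, since they hold the day-night difference that chose the genes. They were a log2 of -2.49 in night and -0.90 in day libraries. The day value was -1.65 without 8 libraries that are set apart below. In day libraries no gene of the 10 was called between regions while all labels were kept.

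Neuroblasts of the adult mouse brain are born next to the lateral ventricle and in the dentate gyrus of the hippocampus. Those of the ventricular zone move forward along the rostral migratory stream, which passes beneath the frontal cortex to the olfactory bulb, and become inhibitory interneurons, while those of the dentate gyrus become excitatory granule cells nearby. Transcription factors of the Dlx and Sp families mark the interneuron lineage, and proteins such as Dcx bind the microtubules that a migrating cell rebuilds as it moves. None of these genes is a textbook marker of microglia, although Sox4 and Cd24a are used outside neurons.

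Total RNA was sequenced from microglia of adult male mice (C57BL/6 in the labels, of the N substrain in the study's methods), as 64 libraries divided equally between hippocampus and frontal cortex. In each region 16 carry the label day and 16 the label night. Both phases hold the conditions Soci, Cogn, Ctr0 and Ctr1 with 4 libraries apiece, so there are 16 groups of 4. The study sampled microglia in the light and in the dark phase of a reversed light cycle. The labels do not say which of them day is, since lights were off during the clock day, nor what the condition names stand for. After perfusion the tissue was dissociated mechanically in the cold, cleared of myelin on Percoll and sorted for CD11b with magnetic beads, a step that enriches microglia and can leave other cells or debris behind. All groups share this preparation, and none carries an engineered allele. Nothing states that the libraries of a group came from different animals, so p-values measure the spread between libraries, which may be technical in part. The samples are bulk samples, in which fewer cells of a type and less RNA per cell cannot be told apart.

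The depth was 11.62 to 84.47 M counts per library in hippocampus (median 17.65 M) and 10.16 to 26.33 M in frontal cortex (median 13.42 M). A floor of 3 counts corresponded to between 0.031 and 0.279 CPM (counts scaled to a common library size, with TMM factors) in hippocampus and between 0.106 and 0.317 CPM in frontal cortex, and floors cover counting error only. The cell type label was checked with 8 microglial markers such as Cx3cr1, P2ry12 and Tmem119, of which 0 were at 0 counts in all libraries. Their summed level lay between 11220 and 24290 CPM in cortex and between 12090 and 20440 CPM in hippocampus. The summed level of the 10 immature neuron genes lay between 75.6 and 145 CPM over all 64 libraries, and Sox4 made up most of it.

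A check of the region labels came before any comparison, and it was added after the data were seen. A score was taken as the mean log2 CPM of 40 genes that were higher in hippocampal night libraries minus that of 40 genes higher in cortical night libraries, with no gene of the lists used here among them. In night libraries, which had also chosen the genes, the score was 1.41 to 3.30 in hippocampus and -2.14 to -1.20 in cortex. In day libraries, which had not chosen the genes, 3 hippocampal libraries (Soci replicate 4, Cogn replicate 4 and Ctr0 replicate 2) had scores of -1.48, -0.75 and -1.56, on the cortical side of the night midpoint of 0.55. Conversely, 3 cortical day libraries (Soci replicate 4, Cogn replicate 4 and Ctr0 replicate 1) had scores of 0.86, 1.34 and 1.21, on the hippocampal side. Day Ctr1 replicate 1 lay near the midpoint in both regions, with 0.63 in hippocampus and 0.35 in cortex. These 8 libraries, here called set-apart libraries, kept their labels in all main fits, and the values without them stand beside the main results. With them, the region fit of the day libraries alone called 1 of 14850 genes lower in hippocampus (0.00673%), and without them 466 of 14590 (3.19%).

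**Figure D1:**
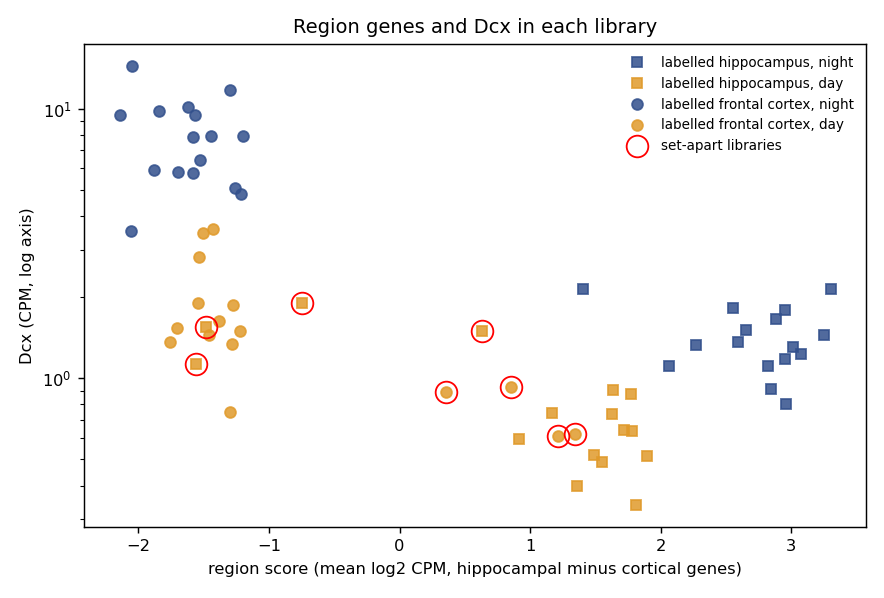
Each point is a library, with the region score (mean log2 CPM of 40 hippocampal minus 40 cortical genes) on the x axis and Dcx in CPM on a log y axis. Squares are labelled hippocampus, circles frontal cortex, and red rings mark the 8 set-apart day libraries, which lie away from the other day libraries of their label. Cortical night libraries (3.53 to 14.4 CPM) sit above all hippocampal night libraries.

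Dcx (doublecortin, ENSMUSG00000031285, GRCm38 chromosome X, 143855842 to 143933311, minus strand) encodes a microtubule-associated protein of migrating neuroblasts. In cortical night libraries its level was 3.53, 7.89 and 14.4 CPM (lowest, median and highest of 16). In cortical day libraries it was 0.611, 1.48 and 3.58 CPM, and in hippocampal night libraries 0.80, 1.35 and 2.15 CPM. Hippocampal day libraries had 0.340, 0.689 and 1.91 CPM. The cortical night libraries are the high ones, and the other 3 sets overlap with each other. With the set-apart libraries left out, the cortical day values were 0.751, 1.58 and 3.58 CPM and the hippocampal day values 0.340, 0.617 and 0.902 CPM, so the highest hippocampal day libraries were among those set apart. Mean counts were small in the lowest set: the 16 hippocampal day libraries held 282 Dcx counts in total, against 2097 in the 16 cortical night libraries.

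Over the 16 groups, the 4 cortical night groups had the highest Dcx means, from 8.49 ± 1.65 CPM in Cogn and 8.48 ± 2.90 in Ctr1 to 7.43 ± 4.78 in Ctr0 and 7.13 ± 2.14 in Soci (SD, n = 4). Their ranges overlap each other, and the lowest of their 16 libraries, Ctr0 replicate 3, had 3.53 CPM. The fifth group in order was cortical day Soci with 1.87 ± 1.17 CPM, whose range did not reach that of cortical night Soci just above it. From there the means go down in small steps, each overlapping the next, through the remaining cortical day and hippocampal night groups to hippocampal day Soci with 0.751 ± 0.544 CPM (SD, n = 4). All 4 cortical day groups stood above all 4 hippocampal day groups in mean, and the ranges overlap.

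**Figure D2:**
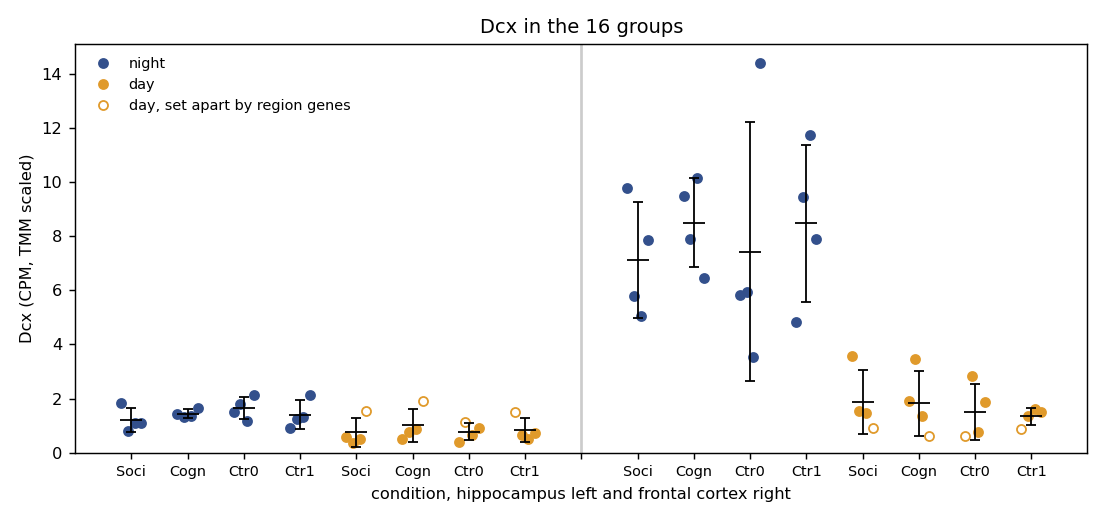
Dcx in CPM (y axis) in each library of the 16 groups (x axis, condition names, hippocampus left and frontal cortex right), with the mean and SD of 4 libraries. Cortical night groups have means of 7.13 to 8.49 CPM, and no other group mean exceeds 1.87 CPM. Open circles are the set-apart libraries.

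Tubb3 encodes the neuronal class III beta-tubulin. Its level was 2.09, 4.40 and 9.55 CPM (lowest, median, highest of 16) in cortical night and 0.727, 1.49 and 2.16 CPM in cortical day libraries. In hippocampus it was 0.888, 2.03 and 3.32 CPM in night and 0.332, 1.22 and 2.54 CPM in day libraries. Tubb3 is also expressed by mature neurons, whose 12 marker genes (such as Camk2a, Snap25 and Nrgn) summed to 215 to 887 CPM in cortical night and 151 to 569 CPM in cortical day libraries. The part of mature neurons in the Tubb3 level was not tested.

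Cd24a encodes a surface glycoprotein used to sort neuroblasts. Its level was 1.55, 3.09 and 6.40 CPM in cortical night libraries and 0.300, 1.27 and 3.17 CPM in cortical day libraries (lowest, median, highest of 16). Hippocampal night libraries had 0.962, 1.68 and 4.75 CPM and hippocampal day libraries 0.408, 1.13 and 2.13 CPM. All 4 sets overlap. Cd24a is also known from ependymal cells and white blood cells. Of 6 ependymal markers 0 were at 0 in all libraries, and they summed to 0.367 to 2.57 CPM in cortical night, 0.242 to 2.49 in cortical day, 1.56 to 15.3 in hippocampal night and 0.375 to 4.10 CPM in hippocampal day libraries. The 8 markers of neutrophils and B cells summed to at most 41.2 CPM in night and 109 CPM in day cortical libraries, and to at most 22.3 and 15.7 CPM in hippocampal ones, and the part of either cell type in Cd24a was not tested. Of the 75-base windows of its transcripts, 1.1% also occur in Gm6212, so its counts are slightly uncertain.

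Sox11 and Sox4 are transcription factors of the SoxC group that act as neurons begin to differentiate. Sox11 had 6.04, 10.4 and 18.3 CPM (lowest, median, highest of 16) in cortical night libraries and 2.60, 4.98 and 9.08 CPM in cortical day libraries. In hippocampus the night values were 4.16, 6.47 and 10.2 CPM and the day values 3.49, 6.71 and 10.9 CPM. Cortical night libraries were high for Sox11 as well, but hippocampal libraries were near cortical day ones and did not separate by phase.

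Sox4 differed from the rest in level and in pattern. It had 62.9, 77.7 and 110 CPM in cortical night and 76.7, 89.1 and 127 CPM in cortical day libraries. The hippocampal values were 64, 78.4 and 102 CPM in night and 79.2, 87.3 and 119 CPM in day libraries. Per kilobase of exon, the cortical night mean of Sox4 was 16.6 ± 2.56 CPM per kb, and the next genes were Tubb3 with 2.51 ± 0.916 and Sox11 with 1.28 ± 0.408 CPM per kb (SD, n = 16). Its coefficient of variation within region and phase was 12.8% to 15.4%, against 27.3% or more in each of the other 9 genes. The antisense gene Gm26735 covers 54.6% of its exons, and counting used strand.

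Dlx1 and Dlx2 are neighbouring homeobox genes on chromosome 2 that specify forebrain interneurons, and Dlx5 is a later member of the same cascade on chromosome 6. Dlx1 had 1.90, 3.99 and 7.68 CPM (lowest, median, highest of 16) in cortical night and 0.264, 1.03 and 2.72 CPM in cortical day libraries. In hippocampus it had 0.418, 0.926 and 1.58 CPM in night and 0.261, 0.677 and 1.28 CPM in day libraries. The cortical night libraries stood above all hippocampal ones.

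Dlx2 had 0.408, 1.01 and 1.80 CPM in cortical night libraries and 0, 0.235 and 1.27 CPM in cortical day libraries, where 9 of 16 did not exceed the floor of 3 counts. Hippocampal libraries held 60 Dlx2 counts in the 16 night and 48 in the 16 day libraries, with 9 and 15 of 16 at or under the floor. Dlx5 was lower still, with 99 counts in the 16 cortical night libraries, 24 in cortical day, 12 in hippocampal night and 30 in hippocampal day libraries. At these depths single hippocampal libraries carry no usable level of either gene.

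Sp9 is a zinc finger transcription factor found in interneuron precursors of the olfactory bulb. It had 1.68, 2.79 and 6.48 CPM (lowest, median, highest of 16) in cortical night and 0.450, 0.984 and 3.03 CPM in cortical day libraries. Hippocampal libraries had 0.298, 0.558 and 0.941 CPM in night and 0.0651, 0.622 and 1.39 CPM in day libraries. The hippocampal phases had similar medians, and the cortical night libraries lay above all hippocampal night libraries.

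Igfbpl1 encodes a secreted protein related to insulin-like growth factor binding proteins and marks neuroblasts. Its level was 0.479, 1.63 and 2.52 CPM in cortical night and 0.225, 0.687 and 0.932 CPM in cortical day libraries. In hippocampus it was 0.373, 0.590 and 1.02 CPM in night and 0.0712, 0.386 and 0.927 CPM in day libraries, and 6 of the 16 day libraries were at or under the floor.

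**Figure D3:**
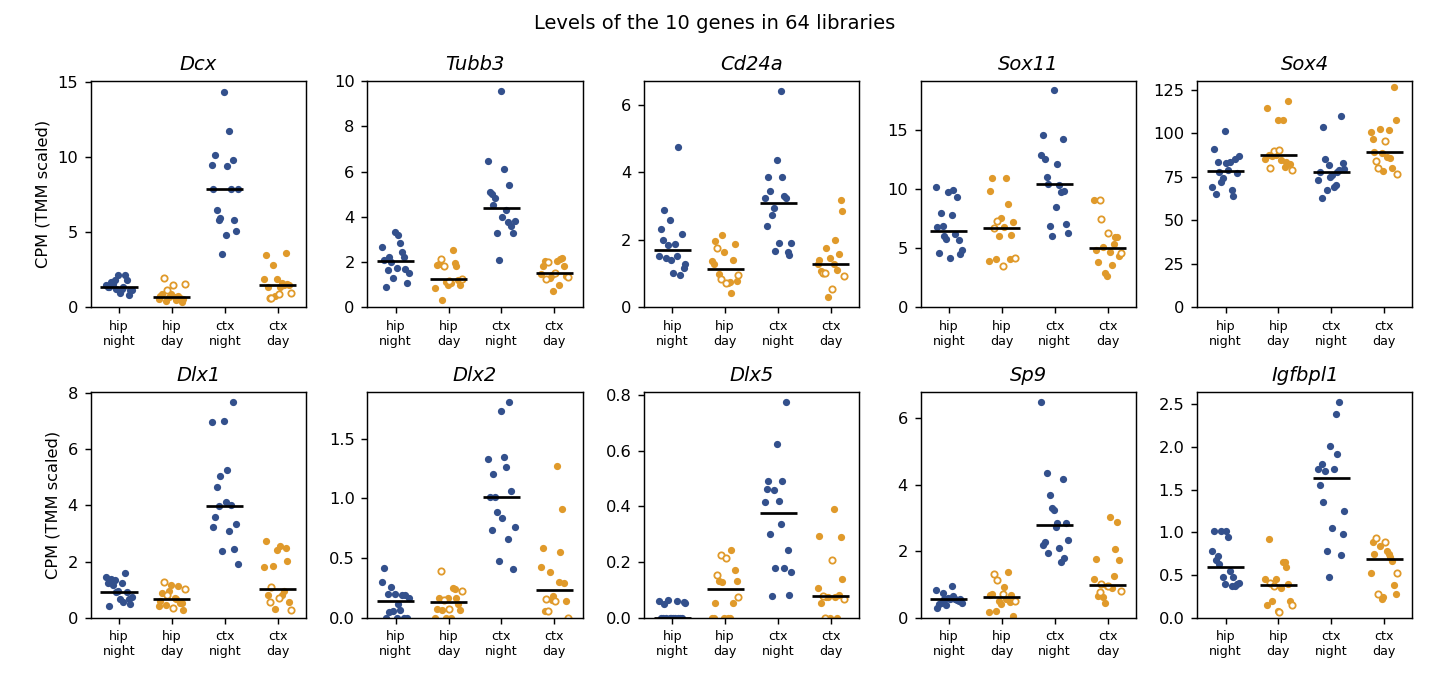
Level of each of the 10 genes in CPM (y axis) in the 16 libraries of each region and phase (x axis), with a line at the median. In 9 panels the cortical night median is the highest of the 4. In the Sox4 panel both day medians (87.3 and 89.1 CPM) lie above both night medians (78.4 and 77.7 CPM). Open circles are the set-apart libraries.

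Promoter windows of 250 bases before the transcript start (249 for Sp9, cut by 1 base that the gene's own exon covers) were read from RefSeq (GRCm38.p6), which matched 7 of the 10 genes and not Dlx5, Cd24a or Igfbpl1. They are shown for Dlx2, Sp9 and Sox11, whose windows lay outside their own exons but for that 1 base. The windows of Dcx, Sox4, Dlx1 and Tubb3 overlapped their own exons and are not printed. Dlx2 and Sp9 had a large region difference, and that of Sox11 was not called averaged over the phases. Capitals mark matches on either strand of CACGTG (the E-box bound by clock factors), CAGCTG (an E-box of neurogenic factors) and GGGCGG (the GC box, written CCGCCC where it lies on the other strand). All are 5′ to 3′ on the strand of the gene.
Dlx2, chr2:71546755-71547004, minus strand: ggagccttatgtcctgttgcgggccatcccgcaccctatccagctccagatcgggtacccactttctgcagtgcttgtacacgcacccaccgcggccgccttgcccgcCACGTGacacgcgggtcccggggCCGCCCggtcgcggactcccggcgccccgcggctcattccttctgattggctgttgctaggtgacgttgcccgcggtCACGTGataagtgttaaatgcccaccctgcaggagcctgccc
Sp9, chr2:73271676-73271924, plus strand: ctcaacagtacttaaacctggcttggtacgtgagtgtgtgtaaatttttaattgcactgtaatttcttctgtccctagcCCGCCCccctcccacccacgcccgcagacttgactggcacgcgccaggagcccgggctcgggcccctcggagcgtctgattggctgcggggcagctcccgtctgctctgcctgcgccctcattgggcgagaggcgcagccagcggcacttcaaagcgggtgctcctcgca
Sox11, chr12:27342719-27342968, minus strand: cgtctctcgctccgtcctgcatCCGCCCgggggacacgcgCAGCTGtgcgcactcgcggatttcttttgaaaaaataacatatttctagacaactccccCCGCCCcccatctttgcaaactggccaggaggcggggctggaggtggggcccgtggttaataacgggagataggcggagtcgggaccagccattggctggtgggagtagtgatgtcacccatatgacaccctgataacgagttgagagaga
The Dlx2 window holds 2 clock E-boxes and 1 GC box, the Sp9 window 1 GC box, and the Sox11 window 1 neurogenic E-box and 2 GC boxes. Of 32851 promoter windows of this length, 6.02% hold the clock E-box, 13% the neurogenic E-box and 32.7% the GC box. The homeodomain core TAATTA, also searched on both strands, is in 4.84% of them and in none of these 3 windows. Among the windows not printed, both of Dcx hold 1 TAATTA, that of Sox4 holds 1 neurogenic E-box and that of Tubb3 holds 2 GC boxes. The Dlx1 window holds none of these motifs. The matches are a description of the letters, not of binding.

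Day and night were compared in the hippocampus, the region that had not chosen the genes, with edgeR over 16 libraries per phase. Of all 15527 genes tested 6550 were called, 3637 of them higher in day, and with library totals alone in place of TMM 262 of 4293 were higher, since that scaling moves the median of all genes to a log2 of -0.14. Of the 7 genes that passed the count filter, Dcx and Cd24a were lower in day, where 18.8% of 15527 genes were called lower, and Sox4 was higher, where 23.4% were called higher. The counts of called genes are therefore near those of the whole table, and the median log2 change of the 7 was -0.34 against 0.02 for all genes tested. Dcx fell by 0.67 ± 0.20 on the log2 scale (SE; edgeR, adjusted p = 0.0070), and without the set-apart libraries by 1.19 ± 0.17 (edgeR, adjusted p = 4.4e-06). Without those libraries 17.7% of 15696 genes were called lower and 18.2% higher, and Dcx and Sox4 were the 2 of 7 called.

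Cd24a fell by 0.57 ± 0.21 on the log2 scale in hippocampal day libraries (SE; edgeR, adjusted p = 0.030). That call was lost without the set-apart libraries (log2 -0.54, edgeR, adjusted p = 0.072) and without replicate 2 or replicate 4. Sox4 rose by 0.25 ± 0.07 (edgeR, adjusted p = 0.0025) and by 0.27 ± 0.07 without the set-apart libraries (edgeR, adjusted p = 0.0040). With scaling by library totals alone the Sox4 call was lost and the value was a log2 of 0.09 (edgeR, adjusted p = 0.559). Tubb3 missed the threshold with log2 -0.46 ± 0.20 (edgeR, adjusted p = 0.060), and it passed in 7 of 14 alternatives, among them library totals alone (adjusted p = 0.0054) and DESeq2 (adjusted p = 0.033). Not called either were Dlx1 with -0.34 ± 0.21, Sp9 with 0.32 ± 0.24 and Sox11 with 0.00 ± 0.16 (edgeR, adjusted p = 0.183, 0.293 and 0.998).

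The remaining 3 genes were under the count filter in hippocampus and were compared by a permutation test of log2 CPM (prior count 2, 2-sided), with adjustment over the 10 such tests made. Igfbpl1 had a mean log2 CPM lower by 0.71 in day libraries (permutation p = 0.00318, adjusted 0.0125, n = 16 and 16). Without the set-apart libraries it was lower by 0.58 (permutation p = 0.0177, unadjusted). Dlx5 went the other way, with the 30 day and 12 night counts given above (permutation p = 0.00374, adjusted 0.0125), and no fold is given because 15 of 16 libraries of each phase were at or under the floor. Once the set-apart libraries were left out, Dlx5 had 14 counts in 12 day libraries and 12 counts in 16 night libraries. Its permutation p was then 0.0375, also unadjusted. Neither unadjusted value shows that the call holds without those libraries. Dlx2 gave a permutation p of 0.93. In none of the 10 genes did every day library lie under every night library, a pattern that 0.142% of all genes tested showed in hippocampus.

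In frontal cortex, whose day-night values chose the genes, the same fit is given as a description. Dcx had a log2 change of -2.28 ± 0.22 (SE), which was -2.02 ± 0.22 without the set-apart libraries. Dlx1 and Dlx2 had -1.68 ± 0.26 and -1.67 ± 0.32, Tubb3 -1.57 ± 0.16, Igfbpl1 -1.31 ± 0.22 and Sp9 -1.23 ± 0.23. Cd24a and Sox11 had -1.11 ± 0.23 and -1.01 ± 0.17. Sox4 alone had a positive value, 0.22 ± 0.07. Of the 9 genes fitted 8 were called lower and 1 higher, where 21.3% and 20.6% of 14975 genes were, and nothing is read from these counts. Dcx and Tubb3 had all 4 day libraries below all 4 night libraries in each of the 4 conditions. Over all 16 against 16 libraries no gene of the 10 separated, since the highest Dcx day library (Soci replicate 1, 3.58 CPM) just passed the lowest night library (3.53 CPM), and 0.0467% of all genes tested did.

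**Figure D4:**
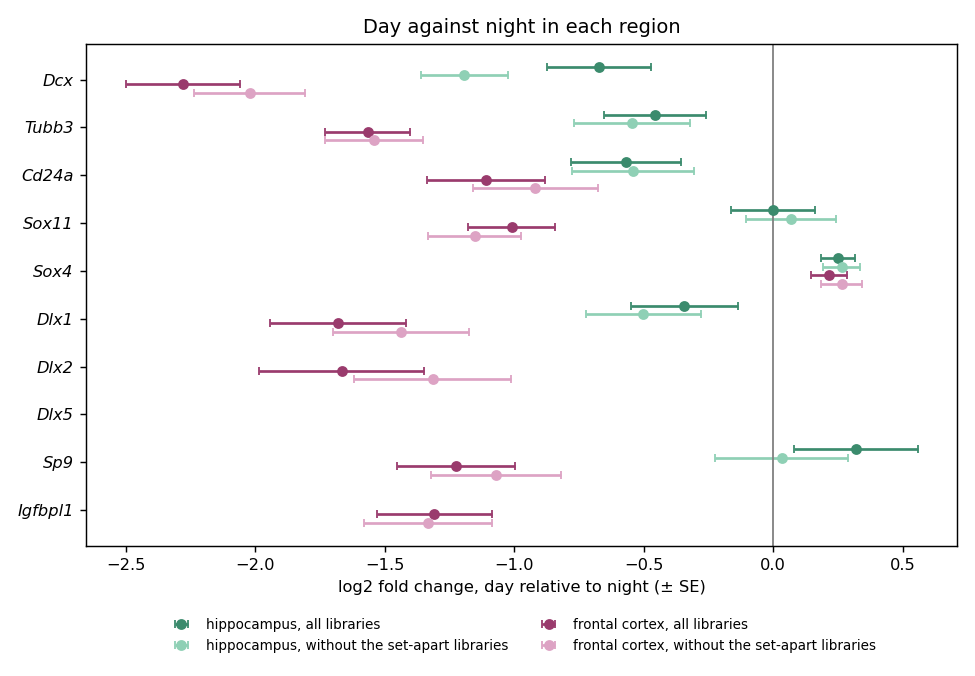
Log2 fold change of day relative to night (x axis, with SE) for each gene, in both regions, with and without the set-apart libraries. Cortical values of Dcx are -2.28 and -2.02, hippocampal values -0.67 and -1.19. Genes with no point were under the count filter of that fit.

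The regions were compared in a fit of all 64 libraries, as the hippocampal minus the cortical level averaged over day and night. This average is balanced over the phases but uses the cortical libraries that chose the genes. The region labels also run along a difference between libraries. Gm23935 held a median of 3.02% of the counts in hippocampal replicate 4, and 3.56% and 3.64% in cortex without and with replicate 4. In the remaining hippocampal libraries its median share was 0.262%. Its part in the region values was not tested. Of the 9 genes past the filter 6 were lower in hippocampus, where 6.17% of 16069 genes were, and 0 were higher, where 10.4% were. Dlx2 and Igfbpl1 had been under the filter in the hippocampal day-night fit and entered this one through the cortical libraries where they are high, so their values are a description, and the counts over the 9 genes support nothing. The median log2 difference of the 9 was -0.92, against 0.00 for all genes tested. Over all genes 1675 of 2667 called were higher in hippocampus, against 854 of 2539 with library totals alone (median -0.11) and 1428 of 3108 with TMM factors set without genes over 1% of the counts. Leaving out the set-apart libraries made 7 of the 9 lower, where 8.63% of 16211 genes were.

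Among the factors of the interneuron lineage, Sp9 was lower in hippocampus by a log2 of -1.67 ± 0.17 and Dlx1 by -1.49 ± 0.17 (edgeR, adjusted p = 2.0e-11 and 1.1e-09). Tubb3 was lower by -0.67 ± 0.13 (edgeR, adjusted p = 8.5e-05). Dcx, whose cortical values chose the genes, had -1.68 ± 0.15, as a description. Dlx2 and Igfbpl1, as a description, had -1.94 ± 0.27 and -0.92 ± 0.17. Without the set-apart libraries the values were -1.88 for Sp9, -1.68 for Dlx1 and -0.71 for Tubb3, all still called. With replicate 4 alone they were -1.27 ± 0.27 for Sp9, -0.92 ± 0.35 for Dlx1 and -0.52 ± 0.27 for Tubb3. None of these was called (edgeR, adjusted p = 0.293, 0.385 and 0.519). As a description they were -2.06 for Dcx, -2.38 for Dlx2 and -0.83 for Igfbpl1. Dlx5 was under the filter and its log2 CPM was lower in hippocampus with a permutation p of 1e-05 (adjusted 1e-04), the smallest that 100000 resamples can give. This too is a description, since Dlx5 is high in cortical night libraries alone. Its mean was 0.356 CPM there, 0.12 in cortical day, 0.0988 in hippocampal day and 0.0214 CPM in hippocampal night libraries. In hippocampus 15 of 16 libraries of each phase were at or under the floor.

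Cd24a missed the threshold in all libraries (log2 -0.42 ± 0.16, edgeR, adjusted p = 0.056) and passed it without the set-apart libraries (-0.49 ± 0.17, adjusted p = 0.030). Sox11 (-0.15 ± 0.12, edgeR, adjusted p = 0.439) and Sox4 (-0.01 ± 0.05, adjusted p = 0.897) were not called. The SE of Sox4 is the smallest of the 9 fitted.

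Within each phase the region values are a description, since each phase alone rests on cortical libraries that chose the genes. In night libraries Dcx had a log2 of -2.49 ± 0.17 (SE), Sp9 -2.44 ± 0.17 and Dlx1 -2.16 ± 0.20. Igfbpl1 had -1.25 ± 0.20, Tubb3 -1.23 ± 0.18, Cd24a -0.70 ± 0.21 and Sox11 -0.65 ± 0.15, while Sox4 had -0.03 ± 0.07. Of the 8 genes fitted 7 were called lower, where 5.86% of 15710 genes were, and nothing is read from this count. Every hippocampal night library lay below every cortical night library for Dcx, Dlx1 and Sp9, where 0.0747% of all genes tested did so. The cortical mean was 5.51 times the hippocampal mean for Dcx, 4.38 times for Dlx1 and 5.31 times for Sp9.

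In day libraries, with all labels kept, Dcx had a log2 of -0.90 ± 0.26, Sp9 -0.91 ± 0.29 and Dlx1 -0.84 ± 0.29, and edgeR called 0 of 7 genes, of which 3 had an unadjusted p under 0.05. With the set-apart libraries left out Dcx had -1.65 ± 0.23, Sp9 -1.33 ± 0.34 and Dlx1 -1.22 ± 0.31, and these 3 were called, a count from which nothing is read. Sox11 then had a positive value, 0.58 ± 0.20, and Tubb3 and Cd24a had -0.22 ± 0.23 and -0.31 ± 0.26. In no gene of the table did every hippocampal day library lie below every cortical day library (0%).

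**Figure D5:**
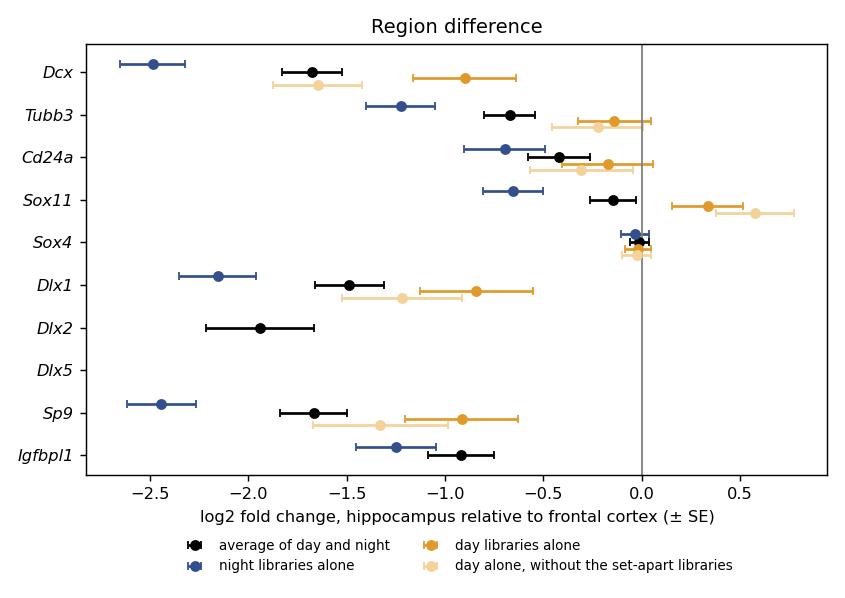
Log2 fold change of hippocampus relative to frontal cortex (x axis, with SE) for each gene, averaged over phases, in night libraries alone, and in day libraries alone with and without the set-apart libraries. Dcx goes from -2.49 in night libraries to -0.90 in day libraries and -1.65 in day libraries without those 8, and Sox4 stays near 0. Genes with no point were under the filter.

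The 4 conditions did not separate the 10 genes at this depth. Averaged over the phases, edgeR called 0 of the 8 genes fitted in the hippocampal libraries, where it called 0% of 16826 genes, and 0 of the 9 fitted in the cortical ones, where it called 0% of 16238. At an unadjusted p under 0.05 edgeR had 1090 and 1094 genes of the table. DESeq2 called 6 and 1 genes of the table and 0 of those fitted here. The lowest unadjusted p was 0.0434, for Igfbpl1 in frontal cortex (edgeR, adjusted p = 0.720) and it was the only value under 0.05 among these. Over the 6 pairs of conditions the largest log2 difference in frontal cortex was 0.79 in size and in hippocampus 0.76, with lowest adjusted p of 0.503 and 0.320 from edgeR. The same fits tested if the change between day and night depended on condition. In hippocampus 0 genes were called (0%), and in frontal cortex 1 gene of the whole table was (0.00616%), which is not among the 10 (DESeq2 called 12 and 9 genes of the table, 0 of those fitted here, and 695 and 603 had an unadjusted p under 0.05 with edgeR). At an unadjusted p under 0.05 from edgeR were Cd24a in both regions (0.0387 and 0.0359) and Sp9 in frontal cortex (0.0440). Leaving out the set-apart libraries, edgeR again called 0 of the genes fitted here in these 4 tests, and Sp9 (0.0156) and Cd24a (0.0219) in frontal cortex were those with an unadjusted p under 0.05.

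Other genes of the young neuron were counted in lists, and their counts stand against the shares of all genes given above (6.17% lower and 10.4% higher between regions, 18.8% lower and 23.4% higher in hippocampal day libraries). Rises in hippocampal day libraries, in these and the marker lists below, rest on the TMM scaling. As given above, library totals alone left far fewer genes called higher. Of 10 genes of the interneuron lineage, 9 could be fitted between regions and 8 were lower in hippocampus. Dlx6os1, a long RNA of the Dlx5 and Dlx6 locus, was lower by a log2 of -1.91 ± 0.18 (edgeR, adjusted p = 3.0e-12). Meis2, a homeobox factor of the same lineage, was lower by -1.48 ± 0.14 (edgeR, adjusted p = 6.1e-12). Sp8, a partner of Sp9, had been under the filter in the hippocampal day-night fit and entered through the cortical libraries where it is high. Its log2 of -2.47 ± 0.25 and its place in the count are a description. The median of the 9 was -0.84, and without the set-apart libraries -0.96 with 8 of 9 lower. The list includes Gad1 and Gad2, enzymes that make GABA and are also used by mature interneurons. In hippocampal day against night libraries 2 of the 8 fitted genes of the list rose (Etv1 by 0.50 ± 0.07 and Pbx3 by 0.34 ± 0.06) and 0 fell, or 2 and 1 without the set-apart libraries. In cortex the list held 7 lower and 1 higher of 9, as a description, or 6 and 1 without them.

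Of 13 cytoskeletal genes of young neurons 2 were lower in hippocampus than in cortex and 0 higher. These were Dpysl3, a growth cone protein (-0.51 ± 0.11, edgeR, adjusted p = 7.6e-04), and Ndel1, a dynein regulator (-0.10 ± 0.03, 0.013), and without the set-apart libraries the count was again 2. Between hippocampal day and night 6 of 13 fell and 2 rose, or 5 and 1 without those libraries. Dpysl3 fell by 0.74 ± 0.16, Dclk1, a relative of Dcx, fell by 0.54 ± 0.16, and Pafah1b1, a dynein regulator of migrating neurons, rose by 0.14 ± 0.04 (edgeR, adjusted p = 3.7e-04, 0.0068 and 0.0071). In cortex 9 of 13 were lower and 1 higher in day, as a description, or 9 and 2 without them.

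For adhesion and guidance, 2 of 11 genes fitted were lower and 3 higher in hippocampus than in cortex, and without the set-apart libraries 3 of 12 were lower and 6 higher. Vldlr, a reelin receptor, was higher (0.60 ± 0.11, edgeR, adjusted p = 5.6e-05). St8sia2, which adds polysialic acid to Ncam1, had -0.82 ± 0.17. It had been under the filter in the hippocampal day-night fit, so its value and its place in the count are a description. In hippocampal day libraries Vldlr fell by 1.12 ± 0.17, Lrp8 fell by 0.40 ± 0.12, and St8sia4 rose by 0.38 ± 0.06 (edgeR, adjusted p = 2.3e-06, 0.0087 and 1.5e-05), out of 10 genes fitted, and the counts were the same without the set-apart libraries. Of 9 genes of the excitatory lineage 5 were fitted, and 3 were higher in hippocampus, Neurod2 by 1.09 ± 0.18, Bhlhe22 by 1.12 ± 0.20 and Prox1 by 0.28 ± 0.05, and Tbr1 was lower by -0.42 ± 0.15 (edgeR, adjusted p = 4.8e-06, 1.7e-05, 3.8e-05 and 0.042). Without the set-apart libraries 4 were higher and 1 lower. In hippocampal day libraries 2 of the 5 fell, and 0 without the set-apart libraries. Of 9 progenitor and dividing cell genes 8 were fitted in hippocampus, where 3 rose and 3 fell in day libraries, and without the set-apart libraries 2 of 9 rose and 3 fell.

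Markers of other cells moved with phase as well, and their part in the values of the 10 genes was not tested. In hippocampal day libraries 8 of 9 astrocyte markers fell and 1 rose, 8 of 8 choroid plexus markers fell, 6 of 7 oligodendrocyte and 3 of 12 mature neuron markers fell, and 8 of 8 microglial and 5 of 5 border macrophage markers rose (edgeR). Without the set-apart libraries 7 astrocyte, 8 choroid plexus, 5 oligodendrocyte and 2 mature neuron markers fell, and 8 microglial and 4 border macrophage markers rose. Choroid plexus markers summed to 11.5 to 2906 CPM in hippocampal night and 1.65 to 917 CPM in hippocampal day libraries, and astrocyte markers to 359 to 1915 and 342 to 553 CPM. Mature neuron markers summed to 225 to 916 CPM in night and 171 to 620 CPM in day. Microglial markers summed to 12090 to 16630 CPM in night and 14230 to 20440 CPM in day.

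In frontal cortex, as a description, 8 of 9 astrocyte, 7 of 12 mature neuron, 4 of 7 oligodendrocyte precursor and 3 of 7 oligodendrocyte markers were lower in day, and 5 of 8 microglial and 5 of 5 border macrophage markers were higher. Of 4 choroid plexus markers fitted 0 were lower. Without the set-apart libraries the counts were 8 astrocyte, 10 mature neuron, 7 precursor, 6 oligodendrocyte and 4 choroid plexus markers lower, and 8 microglial and 5 border macrophage markers higher. Astrocyte markers summed to 297 to 2536 CPM in cortical night and 339 to 660 CPM in cortical day libraries. Between the regions 8 of 8 choroid plexus markers were higher in hippocampus, as was 1 of 12 mature neuron markers, and 1 of 8 microglial markers (Fcrls) was lower. Lower in hippocampus along with the immature neuron genes were 4 of 4 fitted markers of neutrophils and B cells (S100a8, S100a9, Camp and Ngp, log2 -0.76 to -0.89, and 4 of 4 without the set-apart libraries) and 3 of 9 astrocyte markers (1 without them), as well as 1 of 5 border macrophage markers. Camp had been under the filter in the hippocampal day-night fit, so its value is a description. Higher were 5 of 7 oligodendrocyte precursor markers (6 without them), 2 of 2 fitted ependymal markers and 1 of 9 astrocyte markers. Without the set-apart libraries 4 of 12 mature neuron markers were higher in hippocampus, while 7 of the 9 immature neuron genes fitted were lower. Of all these marker genes 0 were at 0 counts in every library.

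After the mean of each phase and condition group was subtracted, the genes most like Dcx in the 32 cortical libraries were Dlx6os1 (Pearson r = 0.78 across libraries), Gstk1 (0.72), Sp8 (0.72), Dlx1 (0.67), Bbip1 (0.64), Iqcc (0.63), Fkbp1b (0.63) and Cope (0.62). In the 28 cortical libraries left without those set apart, the first 3 were Dpysl3 (0.82), C130071C03Rik (0.79) and Igfbpl1 (0.79). In hippocampus they were Gm17229 (0.76), Foxp2 (0.72), Rgs9 (0.72) and Meis2 (0.71) over 32 libraries, and over 28 libraries Edil3 (0.80) and Efcab5 (0.78) were among the first. Libraries share depth and cell composition with every gene in them, and leaving out the set-apart libraries replaced the leading genes in both regions.

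Among the 10 genes themselves the median r over 45 pairs was 0.33 in cortex, with 41 pairs positive, and 0.21 in hippocampus, with 33 positive, over 32 libraries each. It was 0.40 and 0.21 without the set-apart libraries. Sox4 had a median r with the other 9 genes of 0.05 in cortex and -0.02 in hippocampus.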

How the data were processed

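Microglia of mouse hippocampus and frontal cortex were sequenced as total RNA after depletion of ribosomal RNA. Per the labels, the authors mapped reads to GRCm38.p5 with STAR 2.7.3a and counted them per gene with featureCounts (Subread 2.0.0). The deposited values are raw counts, not divided by depth or length. Counting used strand: genes nested in a host gene on its strand had a median of 0.166 of the host's counts per kb (1364 genes), and those on the opposite strand 0.000344 (1097 genes).

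The 10 genes, the other gene lists and the tests were chosen with earlier results of these data known. Day-night, region, condition and interaction contrasts were fitted across all genes with edgeR 4.0.16 in R 4.3.3 (quasi-likelihood F test, TMM scaling, filterByExpr with a minimum count of 10) and adjusted by Benjamini and Hochberg, with a threshold of 0.05. SEs were derived from the F statistic and the fold change. Genes under the filter were compared by permutation (100000 resamples). All 10 genes are named. From other lists up to 3 genes of lowest p past the threshold per comparison were allowed, plus the 8 genes most like Dcx. Markers named to say what a list or score holds, and Ndel1, Gad1, Gad2, Tbr1, Fcrls and the neutrophil genes where a count is spelled out, are named beside that rule. Some genes that the rule allowed are not reported here. Levels are CPM scaled by TMM, and between genes they are compared per kb of exon.

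Alternatives were DESeq2 1.42.0, other scalings and filters, a replicate block and leaving out replicates. Leaving out the 8 set-apart libraries, fits within a phase and fits of replicate 4 alone were added after the data were seen.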

Additional observations from a re-analysis of the deposited data

Results flagged for a closer look

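In each of the 16 groups of 4 libraries, the highest and lowest library of each gene were checked for a gap to the nearest of the others above Dixon's 95% critical share of the range. Of 160 groups 8 were so marked, and chance marks about 1 in 20, which comes to 8.

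Sox4 stood high in 3 libraries: cortical Night Soci replicate 2 with 110 CPM (the others 79.1 to 82.9), hippocampal Day Soci replicate 2 with 119 CPM (79.2 to 83.4) and hippocampal Day Ctr0 replicate 4 with 108 CPM (87.2 to 90.2). Dlx1 had 2.54 CPM in cortical Day Ctr1 replicate 2, against 0.686 to 0.945 in the others, and Igfbpl1 0.838 CPM in cortical Day Ctr0 replicate 2, against 0.225 to 0.278. Cd24a was low in hippocampal Day Ctr1 replicate 4, with 0.408 CPM from 5 counts against 0.699 to 0.737. Dlx5 in hippocampal Night Ctr0 replicate 2 (0.0638 CPM) and Night Ctr1 replicate 3 (0.0607 CPM) rests on 1 count each, where the other libraries had 0.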

How the results depend on the processing

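Dlx2 and Dlx5 have few counts in hippocampal libraries, and single libraries carry no usable level of them. Of single-gene values recomputed under alternatives 731 kept their direction and their side of the threshold, 20 passed and 18 lost the threshold, 10 changed sign, and 7 cortical day-night values, given as a description, moved by more than 1 SE. Of the counts of called genes 8 moved by over 1.5 times. The cause was not tested, except where fewer genes or libraries entered.

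The number of the 10 genes called in hippocampal day against night was 3. It was 5 with no count filter (10 genes fitted), 1 with a minimum count of 50 (2 fitted) and 0 with replicate 4 alone. In frontal cortex day against night it was 9, and 3 with a minimum count of 50 (3 fitted). Between regions it was 6, and 2 with a minimum count of 50 (4 fitted), 0 with replicate 4 alone, 0 in day libraries alone and 3 in day libraries without the 8 set apart. Leaving out each replicate number in turn gave 2 to 4 in hippocampus, 7 to 9 in frontal cortex, 5 to 7 between regions, and 0 to 0 for conditions and interactions. For the genes under the count filter it gave 3 to 3, but at an unadjusted permutation p under 0.05. The highest of these was 0.0445, for Igfbpl1 in hippocampus without replicate 2, so the adjusted calls need not hold. For most of these alternatives the share of all genes called is not given, so nothing is read from how the counts move.

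Values that changed sign were all of genes not called. For Sox11 in hippocampal day against night, leaving out each replicate number in turn gave log2 values of -0.242 to 0.207, leaving out the 6 libraries against their region label gave 0.0328 and leaving out all 8 gave 0.0689. Sp9 there gave -0.0404 to 0.384 over the replicate numbers, and Dlx1 0.0568 with replicate 4 alone. Between regions Sox11 gave -0.311 to 0.0314 over the replicate numbers, 0.336 in day libraries alone and 0.577 in those without the 8, and Sox4 gave -0.0545 to 0.00706 and 0.0526 with replicate 4 alone.

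Pairing by replicate number could not be decided. The median correlation of deviations between libraries of 1 number was 0.01 in hippocampus and 0.04 in cortex. Values were over 0.1 in 40 and 49 of 112 pairs. Across the regions, libraries of 1 phase, condition and number had a median of -0.006, over 0.1 in 12 of 32 pairs. Nothing states whether these share an animal, and the region fit treats them as independent. With a block over these shared label sets 6 genes were called between regions, and 0 calls changed. With a replicate block the counts were 3 in hippocampus, 9 in cortex, 7 between regions and 0 for conditions and interactions, and Cd24a between regions was the 1 call that changed.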
